A study of Mus musculus with 10 samples.

Results

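Voltage-gated sodium channels, potassium channels, voltage-gated calcium channels and hyperpolarisation-activated HCN channels were examined as 1 gene set in sorted cells of the embryonic mouse brain. The set holds the protein-coding genes with a symbol of the Scn (number, a or b), Kcn, Cacn or Hcn type, and 138 of the 53801 genes in the table met this rule. The rule uses symbols and no measured value, although the set was picked for study with earlier results of these data known. At embryonic day 12, wild-type mouse embryos had received StarTrack by in utero electroporation, a method in which integrating fluorescent reporters mark a progenitor and its descendants. Cells of the dorsal brain were dissociated at embryonic day 14 and sorted as NG2+ (5 libraries) or GFAP+ (5 libraries). All 10 libraries carry the wild-type genotype and the electroporation, belong to batch 1 and are labelled as neural stem cells, so no library came from a brain without electroporation. The Cspg4 product NG2 is a cell surface proteoglycan known from oligodendrocyte progenitors and pericytes, and GFAP is the filament protein that marks astrocytes. The labels do not say whether the libraries came from separate embryos, so the p-values measure only the spread between these libraries, which may be technical.

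Ion channels set the electrical behaviour of a cell. Sodium channel alpha subunits open on depolarisation and carry the upstroke of the action potential, potassium channels return the membrane to rest or hold it there, and voltage-gated calcium channels turn depolarisation into calcium entry. Most of these channels are complexes in which a pore-forming subunit is joined by auxiliary subunits that change its gating or its delivery to the membrane. Progenitor cells of the cortical wall are known to rest at negative potentials set by potassium leak, and sodium and calcium channel subunits accumulate as newborn neurons mature.

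Library totals ran from 12945436 to 17569730 counts. The library NG2 5 stood apart, the most deeply sequenced of the 10 and yet with reads for only 18903 genes, where the other 9 libraries had reads for 22988 to 24444. Cspg4, the gene that encodes NG2, stood at 0.691 to 1.54 CPM (reads per library size, with TMM scaling) in the GFAP libraries. In the NG2 libraries it stood at 4.45 to 8.13 CPM (log2 fold change 2.64, SE 0.30, edgeR adjusted p = 0.00256). Gfap had 16 reads in all, did not exceed 0.427 CPM in any library and had no read in GFAP 2, so its transcript gives no check of the GFAP+ sort. Both were looked up after other values had been seen. The libraries held neuronal transcripts beside those of stem cells. The 14 markers of differentiating neurons summed to 5277 to 6807 CPM in the GFAP and 6726 to 9792 CPM in the NG2 libraries. The 12 radial glia markers summed to 2005 to 2847 CPM and 1298 to 2130.4 CPM. In such bulk libraries, fewer cells of a type and less RNA per cell cannot be told apart.

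All potassium channels share a short selectivity filter, and its coding bases are shown for the leading member of each potassium channel class to make the family relation visible. A search of the translated longest coding transcript for threonine or serine, any residue, glycine, tyrosine or phenylalanine, and glycine found it in all 40 voltage-gated alpha subunits, all 8 pore genes of the calcium- and sodium-activated family, all 15 inward rectifiers and all 14 K2P channels. Of the K2P channels, whose subunits carry a pair of pore loops, 11 had 2 matches. All 4 HCN genes had the form with cysteine in the leading position. Each line gives 45 bases, 5′ to 3′ on the coding strand, with the 15 bases of the 5 signature codons in capitals. Kcnn1 stands for the calcium-activated class in place of Kcnn2.
Kcna3: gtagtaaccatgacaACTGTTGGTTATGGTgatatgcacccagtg
Kcng1: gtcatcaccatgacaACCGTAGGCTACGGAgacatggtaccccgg
Kcnn1: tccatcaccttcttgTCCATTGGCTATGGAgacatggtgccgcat
Kcnj11: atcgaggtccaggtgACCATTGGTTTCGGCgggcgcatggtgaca
Kcnk10, match 1: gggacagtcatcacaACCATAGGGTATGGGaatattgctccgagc
Kcnk10, match 2: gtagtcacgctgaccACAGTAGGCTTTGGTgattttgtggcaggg
Hcn3: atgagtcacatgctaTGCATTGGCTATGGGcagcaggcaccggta

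These stretches lie in GENCODE M21 coding exons on GRCm38, at chr3:107037596-107037640 on the plus strand for Kcna3, and on the minus strand for the others, at chr2:168262626-168262670 (Kcng1), chr8:70850642-70850686 (Kcnn1), chr7:46099481-46099525 (Kcnj11) and chr3:89150991-89151035 (Hcn3). Both Kcnk10 stretches cross 1 exon junction, so their spans of chr12:98490043-98496214 and chr12:98436333-98440634 include an intron. Over the 45 bases, 30 were identical between Kcna3 and Kcng1, 22 between Kcna3 and Kcnn1, 21 between Kcna3 and Hcn3 and 15 between Kcna3 and Kcnj11. The Kcnk10 stretches shared 24 (match 1) and 30 (match 2) bases with Kcna3. Within the 15 signature bases, Kcng1, Kcnn1, Kcnj11 and match 1 of Kcnk10 shared 10 with Kcna3, match 2 of Kcnk10 shared 11 and Hcn3 shared 9.

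The channel repertoire was broad, low and topped by a few genes. Of the 138 members, 126 had at least 1 read, 85 had a read in all 10 libraries and 83 reached a mean of 1 CPM. Together the members took 0.11% to 0.167% of the reads of a library. Levels of different genes are compared as FPKM, the deposited fragments per kilobase of gene, scaled for library size. By mean FPKM over the 10 libraries, 7 members reached 10 FPKM and made up 52.2% of the summed FPKM of the set, 39 lay between 1 and 10 FPKM (39.2%), and 49 lay between 0.1 and 1 FPKM (8.18%). The 7 leading genes were Kcna3, Cacnb3, Cacng4, Kcng1, Kcnn2, Kcnip3 and Kcne1l. Among them only Kcna3 and Kcnn2 encode subunits that form a channel pore on their own, while the others are auxiliary or modifying subunits.

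**Figure D1:**
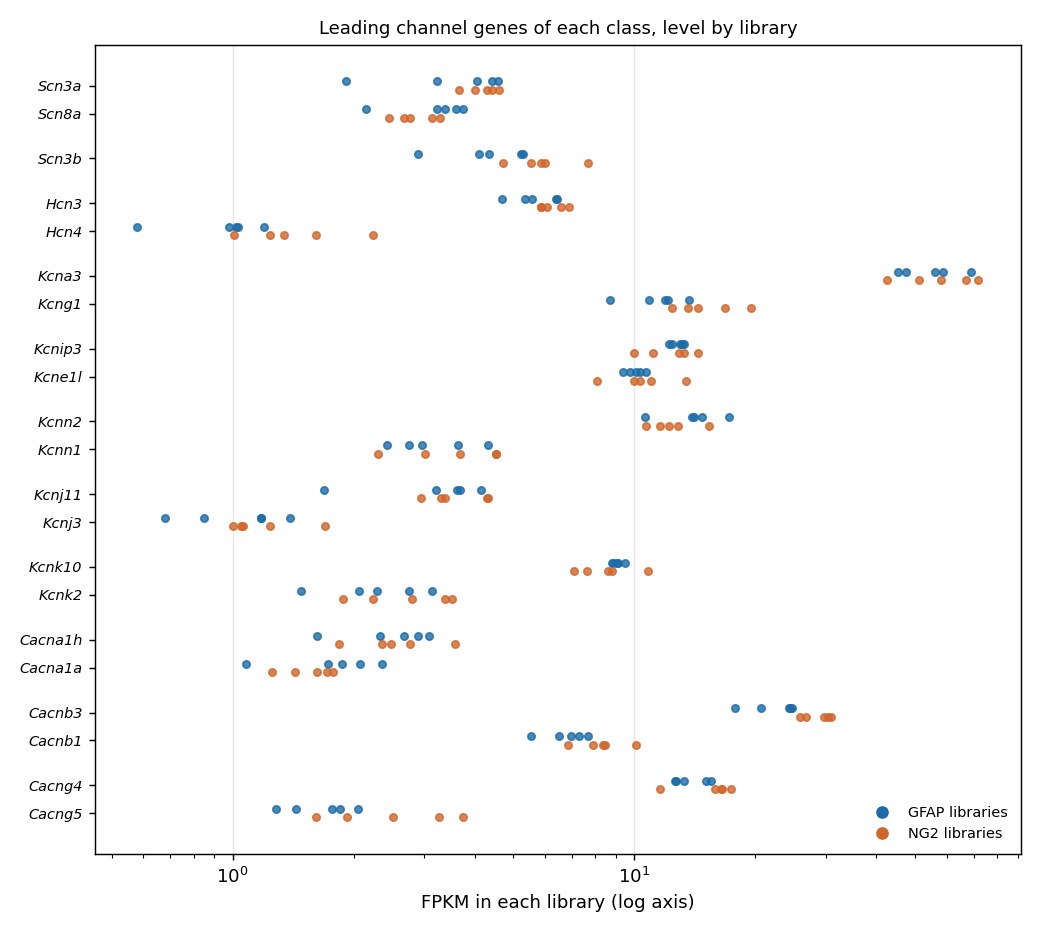
FPKM of the leading members of each class (log axis); each point is 1 library, GFAP in blue and NG2 in orange. Kcna3 lies above all others, between 42.5 and 71.8 FPKM, and the groups overlap for every gene shown except Cacnb3.

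No channel gene differed between NG2+ and GFAP+ cells at the threshold used, an adjusted p of 0.05 by edgeR's quasi-likelihood test. Of the 138 members, 90 passed edgeR's expression filter and 48 did not, and 0 of these 90 were called, where 0.148% of all 16187 tested genes were. DESeq2 called 0 members (1.07% of its genes), and the authors' deposited table lists 0 (1.16%). With limma's voom and sample weights, 6 members passed, or 6.67% against 8.9% of all tested genes. The smallest adjusted p of a member was 0.23, that of Cacnb3. At an unadjusted p under 0.05 there were 15 members, or 16.7% of 90 against 12.8% of all tested genes, of which 13 were higher in NG2 (14.4% against 6.45%) and 2 lower (2.22% against 6.33%). The median log2 fold change, NG2 minus GFAP, was 0.10 for the members and -0.01 for all tested genes. There were 57 positive and 33 negative members (63.3% positive, against 48.5% of all tested genes).

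How far a difference could be bounded varied with the level. The 95% interval lay within a 2-fold change in either direction for 59 of the 90 tested members, and within 1.5-fold for 19. The median standard error of the log2 fold change was 0.25 for the members and 0.20 for those with a mean of at least 5 CPM, against 0.17 over all tested genes. For the other 31 tested members, the interval reached past 2-fold.

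**Figure D2:**
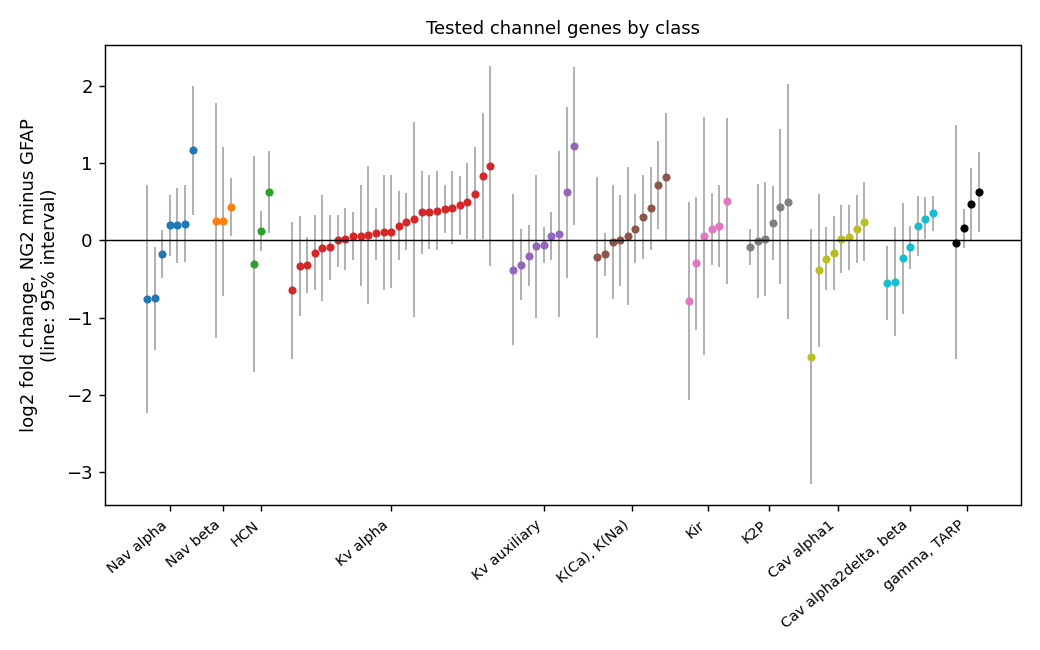
Log2 fold change (NG2 minus GFAP, edgeR) of the 90 tested channel genes, by class and in rising order within a class; each point is 1 gene and the line its 95% interval, not adjusted for the number of genes. Points range from -1.51 to 1.22, and 57 of 90 lie above 0.

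The upward lean of the members was smaller when 1 GFAP library, GFAP 2, was left out. Summed over all members, GFAP 2 held 1115 CPM, while the other 9 libraries held 1498 to 1633 CPM. It was the lowest of the 10 libraries for 40 of the 90 tested members (44.4%), and for 13.2% of all tested genes. A library score was taken as the median, over tested members, of each gene's log2 level minus its mean over the libraries. It was -0.43 in GFAP 2, between -0.04 and 0.15 in the other GFAP libraries and between -0.02 and 0.16 in the NG2 libraries. The same library had the lowest score for the 14 markers of differentiating neurons (-0.45) and the highest for the 12 radial glia markers (0.54). All markers of both lists had reads. Without GFAP 2, the median log2 fold change was 0.03 for the members and 0.00 for all tested genes, with 49 of 93 tested members positive. At an unadjusted p under 0.05, 9 were then higher (9.68% against 6.39% of all tested genes) and 6 lower (6.45% against 7.34%). Without NG2 5 there were 14 higher (15.2% against 8.45%) and 7 lower (7.61% against 8.8%), and without both libraries 12 higher (13.2% against 9.63%) and 9 lower (9.89% against 11.7%). These counts were chosen after seeing the data. The summed levels of the groups overlapped, with 1487 ± 210.3 CPM in GFAP (1579.8 ± 36.1 CPM over the 4 libraries other than GFAP 2) and 1577 ± 56.1 CPM in NG2 (SD, n = 5).

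In the NG2 group the libraries with the highest neuronal scores were not those with the highest channel scores. NG2 3 and NG2 2 had the highest neuronal scores of all libraries (0.43 and 0.27) and the lowest radial glia scores (-0.45 and -0.63). Their channel scores were -0.02 and 0.08, while NG2 5, with a neuronal score of -0.02, had the highest channel score (0.16). NG2 5 is the library with reads for the fewest genes. The SD of the channel score, pooled over both groups and so including GFAP 2 at -0.43, was 0.16. It is no measure of the spread within NG2, where the 5 scores ran from -0.02 to 0.16. Each of these scores is that of 1 library. The part of cell composition in these scores was not tested.

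**Figure D3:**
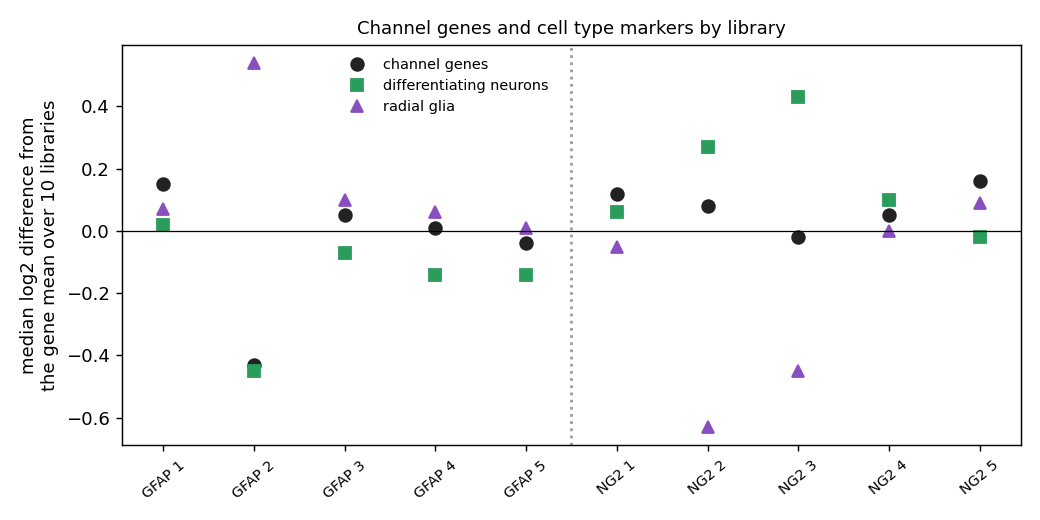
Median log2 difference from the gene mean over 10 libraries, for the 90 tested channel genes (circles), 14 markers of differentiating neurons (squares) and 12 radial glia markers (triangles); the dotted line parts the 5 GFAP from the 5 NG2 libraries. GFAP 2 has the lowest channel score (-0.43) and the lowest neuronal score (-0.45), and the other 9 channel scores lie between -0.04 and 0.16.

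For 6 of the 90 tested members (6.67%) the 5 NG2 libraries did not overlap the 5 GFAP libraries, against 3.28% of all tested genes. Without GFAP 2 the shares were 7.78% and 6.88%, without GFAP 2 and NG2 5 they were 12.2% and 12.2%, and with a filter of 5 CPM in 5 libraries 3.77% and 4.06%, so the members' share did not stay above that of all genes. Cacnb3, Kcnd2, Kcnip4 and Scn9a lay higher in NG2 (4.44% against 1.52%), and 2 members, among them Cacnb2, lay lower (2.22% against 1.76%). Cacnb3 encodes an intracellular beta subunit that brings calcium channel pores to the membrane. It stood at 99.5, 72.2, 98.9, 101 and 84.0 CPM in GFAP 1 to 5 and at 104, 122, 119, 108 and 125 CPM in NG2 1 to 5. The groups were thus parted by a narrow margin, with GFAP 2 the lowest library. Its log2 fold change was 0.35 (SE 0.11, 95% interval 0.12 to 0.57, edgeR adjusted p = 0.23).

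Kcnd2 encodes Kv4.2, a pore subunit of the rapidly inactivating A-type potassium current. Its level was 6.28, 5.78, 5.09, 6.09 and 5.45 CPM in GFAP 1 to 5 and 8.80, 7.71, 7.23, 8.72 and 6.65 CPM in NG2 1 to 5. The log2 fold change was 0.45 and did not pass (edgeR adjusted p = 0.318). Kcnd2 was named after its values were seen. Kcnip4, a calcium-binding KChIP subunit of the same Kv4 channels, stood at 0.188 to 1.10 CPM in the GFAP and 1.17 to 1.71 CPM in the NG2 libraries. Its log2 fold change was 1.22 (SE 0.48, edgeR adjusted p = 0.311), the highest of all tested members and based on 154 reads in all. Kcnip4 shares 7.36% of its exon bases with 5730480H06Rik and Gm20700, and since the strand setting of the counting is not given in the sources used here, the origin of reads there is uncertain.

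Scn9a encodes Nav1.7, a sodium channel best known from sensory neurons. It stood at 0.976, 0.628, 0.759, 0.420 and 0.613 CPM in GFAP 1 to 5 and at 1.57, 1.45, 1.46, 1.07 and 2.14 CPM in NG2 1 to 5, with a log2 fold change of 1.17 (SE 0.39, edgeR adjusted p = 0.256). These values rest on 171 reads in all, and Scn9a shares 1.41% of its exon bases with Gm13629. Cacnb2, another calcium channel beta subunit, was at 4.55 to 5.34 CPM in GFAP and 2.64 to 4.16 CPM in NG2 libraries, with a log2 fold change of -0.55 (SE 0.23, edgeR adjusted p = 0.333). It shares 7.32% of its exon bases with Gm10848, Gm10849 and Gm13269, so the origin of reads there is uncertain. Cacnb2 and Cacnb3, which belong to the same subunit family, therefore lay in opposite directions, and neither passed the test.

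**Figure D4:**
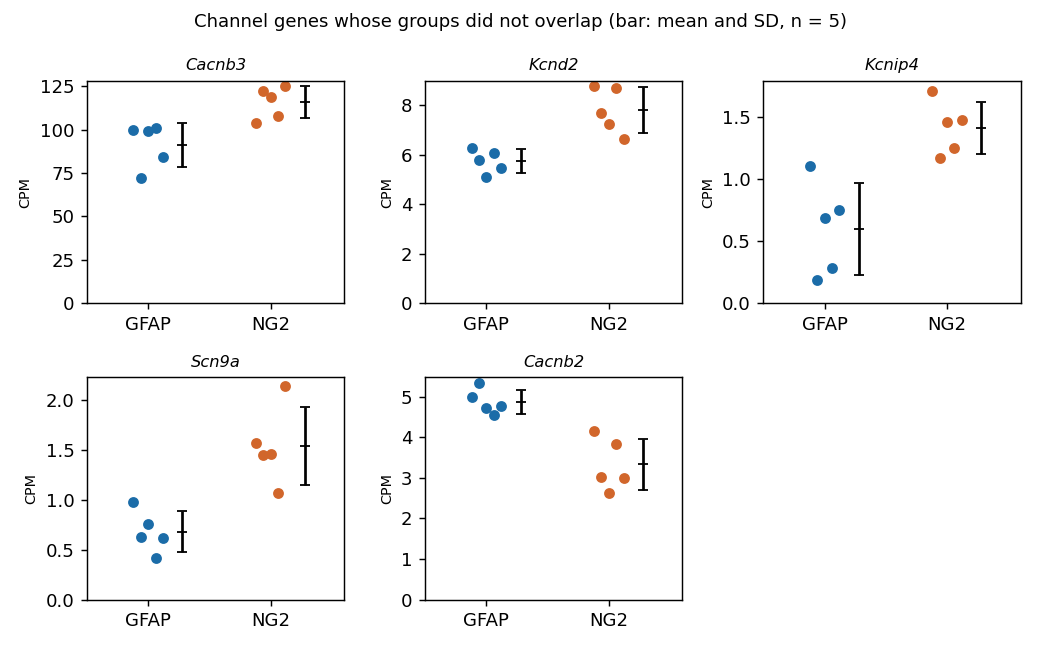
CPM by library of 5 tested channel genes whose groups did not overlap; each point is 1 library and the bar beside it gives mean and SD (n = 5), on axes that start at 0. The gap between groups is narrow in each panel, as between 101 and 104 CPM for Cacnb3, and none of the 5 passed the threshold by edgeR.

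Among the 10 sodium channel alpha subunits, 3 led at similar levels and Scn2a lay below them. Scn3a, which encodes Nav1.3 and is the main embryonic form in rodent brain, stood at 3.63 ± 1.09 FPKM in GFAP and 4.20 ± 0.373 FPKM in NG2. Scn8a (Nav1.6) stood at 3.22 ± 0.631 and 2.86 ± 0.345 FPKM, and Scn1a (Nav1.1) at 2.70 ± 1.04 and 3.16 ± 0.429 FPKM. These 3 genes overlap in their spread over the libraries. Scn2a (Nav1.2) was lower, at 0.680 ± 0.224 and 0.787 ± 0.0454 FPKM. In each of the 4 genes GFAP 2 was the lowest library, with 24.1 CPM of Scn3a against 40.5 to 57.9 CPM in the other 9. The log2 fold changes of Scn3a and Scn8a were 0.20 (SE 0.19) and -0.18 (SE 0.14), with edgeR adjusted p = 0.702 and 0.639. Without GFAP 2 they were 0.03 and -0.30. Scn1a and Scn2a were named after their values were seen.

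Sodium channel beta subunits are cell adhesion molecules that modulate the pore. Scn3b dominated the 4 genes, at 4.37 ± 0.980 FPKM in GFAP and 5.95 ± 1.07 FPKM in NG2. Its libraries ran from 16 to 29.4 CPM in GFAP and from 26.0 to 41.9 CPM in NG2 and overlapped, with a log2 fold change of 0.43 (SE 0.17, edgeR adjusted p = 0.318).

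HCN channels carry a depolarising current at negative potentials. Hcn3 led at 5.96 FPKM over all libraries, with 19.7 to 27.1 CPM in GFAP and 24.3 to 28.6 CPM in NG2, and 17.1% of its exon bases are shared with Pklr. The log2 fold change of Hcn3 was 0.12 (SE 0.12, edgeR adjusted p = 0.725). Hcn4, known as the pacemaker form of the heart, averaged 1.22 FPKM. Hcn4 was at 3.58 to 7.42 CPM in the GFAP libraries and at 6.20 to 13.9 CPM in NG2, the highest value being that of NG2 5. The log2 fold change of Hcn4 was 0.62 (SE 0.25, edgeR adjusted p = 0.322). It was 0.42 without NG2 5 and 0.28 without both NG2 5 and GFAP 2. Over the 20 alternatives it ran from 0.28 to 0.74. Hcn2, known from the adult brain, averaged 0.221 FPKM and was named after its values were seen.

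The 40 voltage-gated potassium channel alpha subunits summed to 496 ± 78.0 CPM in GFAP and 547 ± 37.3 CPM in NG2 libraries (SD, n = 5). Of the 27 tested, 20 were positive and 7 negative (74.1% positive, against 48.5% of all tested genes). The median of their log2 fold changes was 0.11, and 0 passed, where 0.148% of all tested genes did. Kcna3 encodes Kv1.3, a delayed rectifier best known from T lymphocytes and microglia. It held 20.2% of the summed FPKM of all channel genes and ranked 1023 among the protein-coding genes of the table. Kcna3 stood at 114, 87.2, 108, 91.7 and 133 CPM in GFAP 1 to 5 and at 127, 137, 81.1, 111 and 98.0 CPM in NG2 1 to 5. The groups overlapped, and the 95% interval of the log2 fold change was -0.26 to 0.37 (edgeR adjusted p = 0.916). All 10 microglia markers had reads, and their sum ran from 46.7 to 174 CPM in GFAP and from 30.8 to 387 CPM in NG2 libraries. Kcna3 has no intron (chromosome 3, 107036169 to 107038070, plus strand, GRCm38) and shares no exon base with another annotated gene.

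Some genes of this class encode silent subunits, which form channels only together with Kv2 pore subunits. Kcng1, which encodes the silent subunit Kv6.1, stood at 11.5 ± 1.84 FPKM in GFAP and 15.3 ± 2.79 FPKM in NG2, while the Kv2 gene Kcnb2 averaged 1.55 FPKM. Kcng1 was at 39.5 to 62.9 CPM in GFAP and 56.0 to 88.0 CPM in NG2 libraries, with a log2 fold change of 0.41 (SE 0.14, 95% interval 0.10 to 0.71, edgeR adjusted p = 0.276). Kcnf1, another silent subunit, was at 1.88 to 3.34 CPM in GFAP. In NG2, 3 libraries lay at 2.64 to 2.73 CPM while NG2 2 and NG2 5 reached 6.20 and 9.41 CPM, and only these reached above the GFAP range. The log2 fold change was 0.83 (SE 0.38, edgeR adjusted p = 0.386), 0.42 without NG2 5 and 0.07 with voom and sample weights. Kcnv1, a silent subunit as well, averaged 1.23 FPKM.

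Kcnq3, an M-current gene whose product restrains repetitive firing, averaged 2.43 FPKM and ran from 14.8 CPM in GFAP 2 to 54.3 CPM in NG2 3. Kcnh4, a member of the ether-a-go-go family, stood at 0.987 to 3.71 CPM in GFAP and 0.895 to 2.05 CPM in NG2 libraries, with a log2 fold change of -0.65 (SE 0.41, edgeR adjusted p = 0.539). Kcnq3, Kcnb2 and Kcnv1 were named after their values were seen.

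The leading auxiliary subunits of voltage-gated potassium channels lay within a narrow range over the GFAP libraries and a wider one over the NG2 libraries. Kcnip3, a calcium-binding KChIP protein that is also known as a transcriptional repressor, was at 44.0 to 47.9 CPM in GFAP and 35.8 to 51.2 CPM in NG2. Kcne1l, a single-pass KCNE subunit, was at 14.7 to 16.6 CPM and 12.6 to 20.7 CPM. Their log2 fold changes of -0.06 and 0.06 had 95% intervals of -0.30 to 0.17 and -0.25 to 0.37 (edgeR adjusted p = 0.856 and 0.907). GFAP 2 did not stand apart for either gene.

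Channels opened by intracellular calcium or sodium shape the potential after a spike, and the relative Kcnu1, which is opened by voltage and alkaline pH instead, is grouped with them by descent. Kcnn2, which encodes the small-conductance channel SK2, led them at 14.1 ± 2.36 FPKM in GFAP and 12.5 ± 1.73 FPKM in NG2, with 78.2 to 128 CPM and 79.1 to 112 CPM. Kcnn1 (SK1) and Kcnn3 (SK3) averaged 3.41 and 1.96 FPKM, Kcnn3 being named after its values were seen. The log2 fold change of Kcnn2 was -0.18 (SE 0.13, edgeR adjusted p = 0.589; -0.27 without GFAP 2 and -0.09 without GFAP 5) and that of Kcnn1 was 0.15 (SE 0.21, edgeR adjusted p = 0.809). Kcnn1 and Kcnn2 share 2.88% and 8.13% of their exon bases with other annotated genes. Kcnu1 encodes the sperm channel Slo3. It was at 5.12 CPM in GFAP 1, 2.45 to 3.19 CPM in the other GFAP libraries and 4.23 to 7.16 CPM in NG2, with a log2 fold change of 0.71 (SE 0.27, edgeR adjusted p = 0.298). Kcnmb2, a beta subunit of the large-conductance BK channel, was at 0.700 to 1.76 CPM in GFAP and 1.39 to 2.80 CPM in NG2 (log2 fold change 0.82, SE 0.38, edgeR adjusted p = 0.389).

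Inward rectifiers pass potassium best near the resting potential. Kcnj11 encodes Kir6.2, the pore of the ATP-sensitive potassium channel, and led the class at 3.46 FPKM. It stood at 13.8, 6.28, 15.5, 12 and 13.5 CPM in GFAP 1 to 5 and at 10.8 to 16.1 CPM in NG2 (log2 fold change 0.15, SE 0.22, edgeR adjusted p = 0.826). The gene of its sulfonylurea receptor, Abcc8, looked up after these values were seen, was likewise lowest in GFAP 2, at 22.0 CPM against 54.9 to 100.5 CPM in the other 9. Kcnj3, a G-protein-gated channel, averaged 1.13 FPKM, and 31.1% of its exon bases overlap another gene. Its log2 fold change was 0.18 (SE 0.24, edgeR adjusted p = 0.797).

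Reads of a pair of members were concentrated in GFAP 1. Other members also had the most reads in this library but by less, such as Scn8a with 949 against 881 in GFAP 5. Kcne2 and Kcnj13, known from the epithelium of the choroid plexus, had 220 and 116 reads in all, and GFAP 1 alone held 143 and 58 of them. Kcne2 had 6, 13, 43 and 0 reads in GFAP 2 to 5, and 10, 2, 0, 3 and 0 in NG2 1 to 5. Kcnj13 had 7, 6, 16 and 6 reads in GFAP 2 to 5, and 15, 0, 3, 5 and 0 in NG2 1 to 5. Neither passed the expression filter of the test, and 49.1% of the exon bases of Kcnj13 are shared with Gigyf2. The choroid plexus genes Ttr, Folr1, Clic6 and Otx2 also had the most reads in GFAP 1, with 4112, 92, 120 and 77. In GFAP 5 they had 0, 2, 0 and 16 reads and in NG2 5 they had 1, 0, 0 and 0. Kcne2, Kcnj13 and these 4 genes were looked up after their values were seen, and the part of choroid plexus tissue in the reads was not tested.

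**Figure D5:**
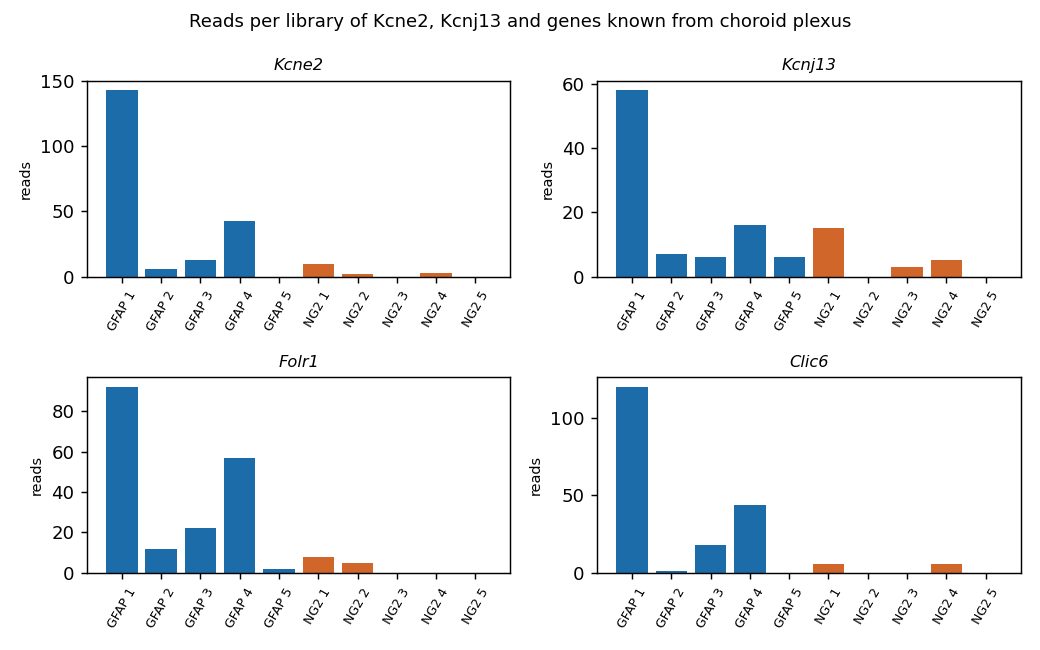
Reads in each of the 10 libraries for the channel genes Kcne2 and Kcnj13 and for Folr1 and Clic6, genes known from the choroid plexus; GFAP libraries in blue, NG2 libraries in orange, axes starting at 0. GFAP 1 has the highest bar in all 4 panels, with 143, 58, 92 and 120 reads.

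K2P channels provide the potassium leak that sets the resting potential. Kcnk10, which encodes the mechanosensitive channel TREK-2, was the leading leak channel at 9.05 ± 0.259 FPKM in GFAP and 8.56 ± 1.42 FPKM in NG2. It was at 79.2, 80.2, 78.2, 80.9 and 84.4 CPM in GFAP 1 to 5 and at 94.4, 67.0, 77.3, 76.1 and 62.6 CPM in NG2 1 to 5. The GFAP libraries lay close together, GFAP 2 included, while the NG2 libraries fell on both sides of them. The log2 fold change of Kcnk10 was -0.09 (95% interval -0.32 to 0.14, edgeR adjusted p = 0.758). Its relative Kcnk2 (TREK-1) averaged 2.55 FPKM, and its fold change on the log2 scale was 0.22 (SE 0.22, edgeR adjusted p = 0.717), with 12.2% of its exon bases shared with A430027H14Rik.

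Calcium channel alpha1 subunits, which form the pore, were all below 3 FPKM. Cacna1h (Cav3.2), a low-voltage-activated T-type channel, led at 2.56 FPKM, followed by Cacna1a (P/Q type) at 1.69 FPKM and Cacna1b (N type) at 1.54 FPKM. The L-type genes Cacna1c and Cacna1d averaged 0.704 and 0.690 FPKM. Cacna1h was at 16 to 30.4 CPM in GFAP and 18.0 to 35.3 CPM in NG2, and its log2 fold change was 0.04 (95% interval -0.38 to 0.45, edgeR adjusted p = 0.961). That of Cacna1a was -0.24 (SE 0.19, edgeR adjusted p = 0.639), and it was -0.38 without GFAP 2 and -0.12 without GFAP 4. Cacna1g (Cav3.1) was spread over 2.14 to 6.10 CPM in GFAP, and over 1.17 to 3.14 CPM in NG2 1 to 4 with 7.16 CPM in NG2 5. Its log2 fold change was -0.39 (SE 0.46, edgeR adjusted p = 0.769) with all libraries and -0.97 without NG2 5 (edgeR adjusted p = 0.201). With limma's voom and sample weights it was -1.21 and passed (adjusted p = 0.0289). Cacna1b, Cacna1c and Cacna1d were named after their values were seen.

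The leading auxiliary subunits of calcium channels lay above the pores in FPKM. Cacnb3 averaged 25.5 FPKM and Cacnb1 7.55 FPKM, and Cacna2d1, the extracellular alpha2delta subunit bound by gabapentin, 5.86 FPKM. Cacnb1 was at 25.3 to 35.4 CPM in GFAP and 31.0 to 45.8 CPM in NG2 (log2 fold change 0.28, SE 0.13, edgeR adjusted p = 0.381). Cacna2d1 was at 51.7 CPM in GFAP 2 and at 65.9 to 88.2 CPM in the other 9 libraries. Cacna2d3 was at 4.08 to 11.4 CPM in GFAP and 2.78 to 8.46 CPM in NG2 (log2 fold change -0.54, SE 0.33, edgeR adjusted p = 0.528). Of the 7 tested alpha2delta and beta genes, 3 were positive and 4 negative (42.9% positive, against 48.5% of all tested genes). Cacna2d1 was named after its values were seen.

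The Cacng genes include TARPs, which traffic AMPA receptors rather than calcium channels. Cacng4 led at 14.7 FPKM, with 45.8 to 56.2 CPM in GFAP and 57.0 to 62.4 CPM in NG2 1 to 4. NG2 5 was lower than all of them at 42.1 CPM, and the log2 fold change was 0.16 (SE 0.12, edgeR adjusted p = 0.627) with it and 0.25 without it. Cacng5 was at 4.97 to 7.97 CPM in GFAP and 6.21 to 14.4 CPM in NG2 (log2 fold change 0.62, SE 0.24, edgeR adjusted p = 0.313). Cacng6, Cacng7 and Cacng8 are listed at 0 reads in all 10 libraries. They lie side by side within a run of 28 annotated genes on chromosome 7 (3218626 to 3604150, GRCm38), of which 24 had no read in any library and none had more than 6 reads. The gene with those 6 reads is Myadm, a membrane protein gene that many tissues express. The zeros of these 3 genes are therefore given as listed and not as absence of expression.

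Genes that work with the channels were also listed, as a group of 52 that holds scaffolds such as Ank3, channel-binding factors such as Fgf14 and Dpp6, calmodulins, calcium release channels, ion pumps and exchangers, and the repressor Rest. Of the 51 tested, 0 passed by edgeR, where 0.148% of all tested genes did. There were 33 positive and 18 negative (64.7% positive, against 48.5% of all tested genes). The median log2 fold change was 0.06, against -0.01 for all tested genes. High levels per length were those of the calmodulin genes Calm2 and Calm3, at 1174 and 138 FPKM, and of Atp1b3, a sodium pump subunit, at 63.2 FPKM. Rest, which represses neuronal genes including channels in non-neuronal cells, stood at 25.7 ± 4.38 CPM in GFAP and 21.0 ± 7.45 CPM in NG2 (log2 fold change -0.29, SE 0.21, edgeR adjusted p = 0.602).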

How the data were processed

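RNA of 5 GFAP+ and 5 NG2+ sorted samples was amplified (SMARTer), enriched for poly(A) and sequenced as paired ends, per the labels' protocols. HISAT2, featureCounts 1.5.0-p3 and GRCm38.p6 are named in the submitters' processing notes. The sources used here do not state the annotation release, the strand setting or the tool of the authors' comparison. The deposited table holds, per the file headers, raw counts per gene and FPKM for each library. It also holds the authors' comparison as mean scaled signal per group, log2 fold change, p-value and adjusted p-value; the authors' group signal was not used for results here.

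The rule for the 138 members uses symbols alone, but the set and all gene lists were chosen with earlier results of these data known. Counts were filtered with filterByExpr, scaled with TMM and tested with edgeR 4.0.16 (quasi-likelihood, all 10 libraries, no covariate) in R 4.3.3, with Benjamini-Hochberg adjustment over 16187 genes and a threshold of 0.05. DESeq2 1.42.0, limma 3.58.1 (voom, or log2 of FPKM plus 1 or 0.1), other scalings and filters, a replicate block and leaving out each library were alternatives, 20 in all. The code was tested on simulated data. Library scores used log2(CPM + 0.5). Shared exon bases, coding sequences and coordinates came from GENCODE M21 (GRCm38). The filter search allowed serine in place of threonine only after a search for threonine alone had missed genes. Precision rests on 12945436 to 17569730 counts per library; for a gene with no read, 3 counts over all libraries would be 0.0197 CPM, which covers counting error only. Genes named by rule were, per class, the 2 with the highest FPKM; the 5 largest positive and 5 largest negative fold changes among members of at least 1 CPM; the 5 smallest p-values; and any past the threshold. Some genes are not reported here.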

Additional observations from a re-analysis of the deposited data

Results flagged for a closer look

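In 60 groups of 5 values, each the CPM of 1 named channel gene in 1 sort, a single library was checked for lying far from the other 4, and 2 such cases were found, where chance gives about 1 in 20. Kcnu1 was at 5.12 CPM in GFAP 1, against 2.45 to 3.19 CPM in the other GFAP libraries. Cacng4 was at 42.1 CPM in NG2 5, against 57.0 to 62.4 CPM in the other NG2 libraries.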

How the results depend on the processing

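The count of 0 channel genes past the threshold held under the alternatives run except limma's voom with sample weights. Voom called 6 (6.67% against 8.9% of all tested genes), with 3 higher, among them Kcnd2 and Kcnv1, and Kcnh7, Cacna1g and Kcnj6 lower. Those other than Cacna1g were named after their values were seen. With each library left out in turn, the count stayed at 0, the median log2 fold change ran from 0.03 to 0.17, the number detected from 81 to 84 and the number without overlap from 6 to 9 (6.67% to 10.0% of members, 3.87% to 6.88% of all tested genes). The number without overlap was 2 of 53 with a filter of 5 CPM in 5 libraries (3.77% against 4.06% of all genes) and 11 with GFAP 2 and NG2 5 both left out (12.2% against 12.2%), when the median was 0.00. Replicate numbers did not pair the libraries (correlations of same-numbered libraries -0.004 to 0.076, GFAP 2 alone matching its own number best). A fit with the replicate block called 0 channel genes and 1 of all genes.

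Of the fold changes of 30 named genes, 16 of the recomputed values changed sign, all for genes that lay between -0.06 and 0.22 with all libraries. With voom, Kcnip3 was 0.03, Kcnn1 -0.13, Kcnj11 -0.05, Kcnj3 -0.08, Kcnk2 -0.01 and Cacna1h -0.18. Over the fits that left out 1 library, Kcna3 ran from -0.03 (without NG2 2) to 0.16, Kcnip3 from -0.12 to 0.01 (without NG2 5), Kcne1l from -0.04 (without NG2 1) to 0.15, Kcnj11 from -0.02 (without GFAP 2) to 0.25 and Cacna1h from -0.11 (without NG2 5) to 0.14. Kcnn1, Kcnj3 and Kcnk2 kept their sign there, at 0.06 to 0.29, 0.04 to 0.31 and 0.10 to 0.36. Without GFAP 2 and NG2 5, Kcnj11 was -0.09 and Cacna1h -0.23, and scaled by library size alone Cacna1h was -0.01. The cause was not tested. The 36 members that had reads but were not tested failed the expression filter, none above a mean of 1.41 CPM. Total reads alone did not decide this. Kcne2 was not tested with 220 reads, 143 of them in GFAP 1, while Kcnip4 was tested with 154.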

Other observations

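The antisense RNA Kcnq1ot1, which silences imprinted neighbours of the potassium channel gene Kcnq1, was at 147 ± 41.8 CPM in GFAP and 105 ± 28.7 CPM in NG2 libraries (SD, n = 5; log2 fold change -0.49, SE 0.21, edgeR adjusted p = 0.362). It shares its locus with Kcnq1, whose mean lay under 0.1 FPKM. Kcnab3, a beta subunit of Kv1 channels, had 86 to 168 reads in 9 libraries and 7 in NG2 5. Kcnj8, the pore of the vascular form of the ATP-sensitive channel, had 10 to 56 reads in 9 libraries and 0 in NG2 5, and its receptor gene Abcc9 had no read in GFAP 5 and NG2 5. NG2 5 had no read for 50 members, 11 of which had a read in each of the other 9 libraries. Yet 84 members reached 1 CPM in it, a number within the 76 to 85 of the other libraries. All of these genes were looked up after their values were seen.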
